A study of Rattus norvegicus with 48 samples.

Results

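The renal medulla of rats given apocynin was compared with that of rats given none, whatever their diet. The 12 medulla arrays that the signal table names for the Apocynin and HLP+Apocynin groups formed one pool, those of the Control and HLP groups formed the other, and these 24 arrays were taken from 48 in the series, the rest being cortex. Control rats ate regular chow, HLP rats ate chow holding 5% hydroxy-L-proline (HLP), Apocynin rats ate regular chow and received apocynin to drink, and HLP+Apocynin rats received both. The labels describe male Wistar rats, 4 mmol apocynin and day 28, and give 28 days as the age too, which is the length of the treatment. The methods instead name Sprague-Dawley rats, already older than 28 days when bought, and describe no group given apocynin alone. In the groups that the methods describe, each array held RNA of 1 piece of dissected medulla of 1 rat. The methods do not state this for the Apocynin group. All arrays were of the Illumina RatRef-12 BeadChip, where a probe stands for a gene.

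The NADPH oxidase of phagocytes has membrane subunits, encoded by Cybb and Cyba, and cytosolic subunits, such as those encoded by Ncf1 and Ncf4. It makes superoxide when these meet, together with a small GTPase of the Rac family. Apocynin is used as an inhibitor of this assembly. Hydroxyproline is turned into oxalate, which forms calcium oxalate crystals in the tubules, and the medulla, with its thick ascending limbs and collecting ducts, concentrates the urine in which they grow.

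The pools are the same under the array names of both deposited tables, although the log2 table gives 20 of the 24 medulla arrays another sample's name and 12 of them another group's. Each pool also fills 1 unbroken block of 12 columns of the signal table, the number of arrays on a chip of this type. Since no source used here states which chip held an array, apocynin and block cannot be told apart in any result below. The median signal of an array ran from 49.3 to 61.1 (median 54.3) without apocynin and from 55.6 to 75.1 (median 64.0) with it. Between 49.9% and 52.1% of the probes were detected on an array without apocynin, against 48.2% to 52.8% with it. Apocynin 3 and HLP+Apocynin 3 stood apart in matrix and macrophage genes, and Control 4, Apocynin 4 and HLP+Apocynin 5 were high in genes of the proximal tubule and podocyte. In the arrays without apocynin, 2 of 20 proximal tubule markers and 0 of 5 podocyte markers exceeded their cortex level. Of the markers of the thick ascending limb and distal tubule, 8 of 11 exceeded it, with a median difference of 0.37 on the log2 scale. Collecting duct markers did not separate the tissues in this way. Their cortex level was exceeded by 7 of 14 principal cell markers (median 0.03) and 1 of 13 intercalated cell markers (median -0.21).

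Many small shifts separated the pools. Of 11972 probes detected (p under 0.05 against the negative controls) on 6 or more of the 24 arrays, 2789 (23.3%) differed at an adjusted p under 0.05 by limma, 1228 (10.3%) of them higher and 1561 (13%) lower with apocynin. The median size of a called difference was 0.205 on the log2 scale, and 764 of the calls were under 0.1. Only 181 called probes differed 1.5-fold or more, 84 higher and 97 lower, and 29 reached 2-fold, 16 higher and 13 lower. On 54 probes (0.451%), the 12 arrays with apocynin did not overlap the 12 without, with 20 entirely above and 34 entirely below. Taken as 1 lead probe for each of 8560 genes, 2004 (23.4%) were called, 926 (10.8%) higher and 1078 (12.6%) lower, and the median difference over all genes was 0.002. The share of calls that were higher was 44% here and 20.2% when the arrays were scaled by their medians, which called 361 probes higher and 1424 lower and moved the median of all probes to -0.021. With the log2 median signal of each array as a term in the fit, 557 probes were called, 172 higher and 385 lower.

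Among the genes of largest rise were secreted products of stressed or remodelling tissue. Clu encodes clusterin, an extracellular chaperone that is raised in injured tubules. Its log2 signal was 10.46 to 11.63 (median 10.94) without apocynin and 10.95 to 13.25 (median 12.41) with it. The pools overlapped only through the low end of the apocynin pool, where Apocynin 1 (10.95) and HLP+Apocynin 6 lay under Control 4 (11.63), the highest array without it. Clu rose 2.46-fold (log2 difference 1.30 ± 0.23, SE, n = 12 and 12, limma, adjusted p = 0.000275). Hpgd encodes the enzyme that breaks down prostaglandins, which are made in quantity in the medulla. It went from 8.70 to 10.39 (median 10.04) without apocynin to 9.74 to 11.63 (median 11.18) with it, and 11 of 12 arrays with apocynin were above the mean of those without, Apocynin 4 being the exception. Hpgd rose 2.38-fold (1.25 ± 0.20, SE, limma, adjusted p = 0.000133), and Ptgis, for prostacyclin synthase, rose by 0.22 on the log2 scale (limma, adjusted p = 0.0144). Ptgis lay near the floor of the signals, at 6.64 to 6.85 without apocynin. Of 13 tested genes of prostaglandin synthesis and receptors, 2 rose (15.4%, against 10.8% of all genes) and 0 fell, with a median of 0.02.

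Lcn2, for the iron-binding injury marker lipocalin, had the largest rise and one of the weakest tests. Its log2 signal was 6.89 to 9.54 (median 8.15) without apocynin and 7.06 to 12.92 (median 9.42) with it, and the highest value was that of HLP+Apocynin 3. The difference was 1.35 ± 0.49 (SE, limma, adjusted p = 0.0468), and it fell to 0.75 (limma, adjusted p = 0.097) without Apocynin 3 and HLP+Apocynin 3. The call was also lost on leaving out any of 18 single arrays in turn, with an adjusted p of up to 0.0851 by limma. Timp1, an inhibitor of matrix metalloproteinases, was at 7.26 to 8.41 (median 7.88) without apocynin and 7.52 to 12.41 (median 8.69) with it. Its rise of 1.26 ± 0.39 (SE, limma, adjusted p = 0.0209) was also led by the arrays Apocynin 3 (11.01) and HLP+Apocynin 3 (12.41). Krt8, a keratin of simple epithelia, rose by less, from 10.66 to 11.24 without apocynin to 11.09 to 12.11 with it (log2 difference 0.44 ± 0.09, SE, limma, adjusted p = 0.00147). Its highest values were again those of Apocynin 3 (11.65) and HLP+Apocynin 3 (12.11). Of the 16 tested genes of the list of tubular injury, 6 rose (37.5%, against 10.8% of all genes) and 0 fell, and the median difference was 0.17 against 0.002 for all genes. Without the 2 arrays that stood apart, 4 rose, 1 fell and the median was 0.02.

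All 20 tested genes of the list of fibrosis and matrix were higher with apocynin, and 5 of them rose (25%, against 10.8% of all genes) and 0 fell. Lox, which cross-links collagen, was at 6.87 to 7.80 (median 7.39) without apocynin and 7.43 to 11.34 (median 8.27) with it. Every array with apocynin was above the mean of those without (log2 difference 1.14 ± 0.32, SE, limma, adjusted p = 0.011). Fbln1, for the matrix protein fibulin, went from a median of 7.53 to one of 8.47 and rose by 1.01 ± 0.27 (SE, limma, adjusted p = 0.00986). The other called members were Loxl1, Col14a1 and Dcn, with differences of 0.88, 0.74 and 0.66. Without Apocynin 3 and HLP+Apocynin 3, Loxl1 (0.50, limma, adjusted p = 0.0847) and Dcn (0.42, limma, adjusted p = 0.11) were not called, and Loxl1, Dcn and Col14a1 lost their calls on leaving out any of 13, 11 and 7 single arrays in turn. The median of the list was 0.51 over all 24 arrays and 0.28 without Apocynin 3 and HLP+Apocynin 3, when 4 genes were called. Without the 3 arrays high in proximal tubule genes, or without all 5, 9 were called. With the log2 median signal of each array as a term 0 were called at a median of 0.71, and without background correction 10 were called at a median of 0.74. Averaged over the list, an array with apocynin lay between -0.01 and 2.37 (median 0.31) from the mean of the arrays without, which themselves ran from -0.43 to 0.40. In whole tissue, more cells of a type and more RNA per cell cannot be told apart.

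**Figure D1:**
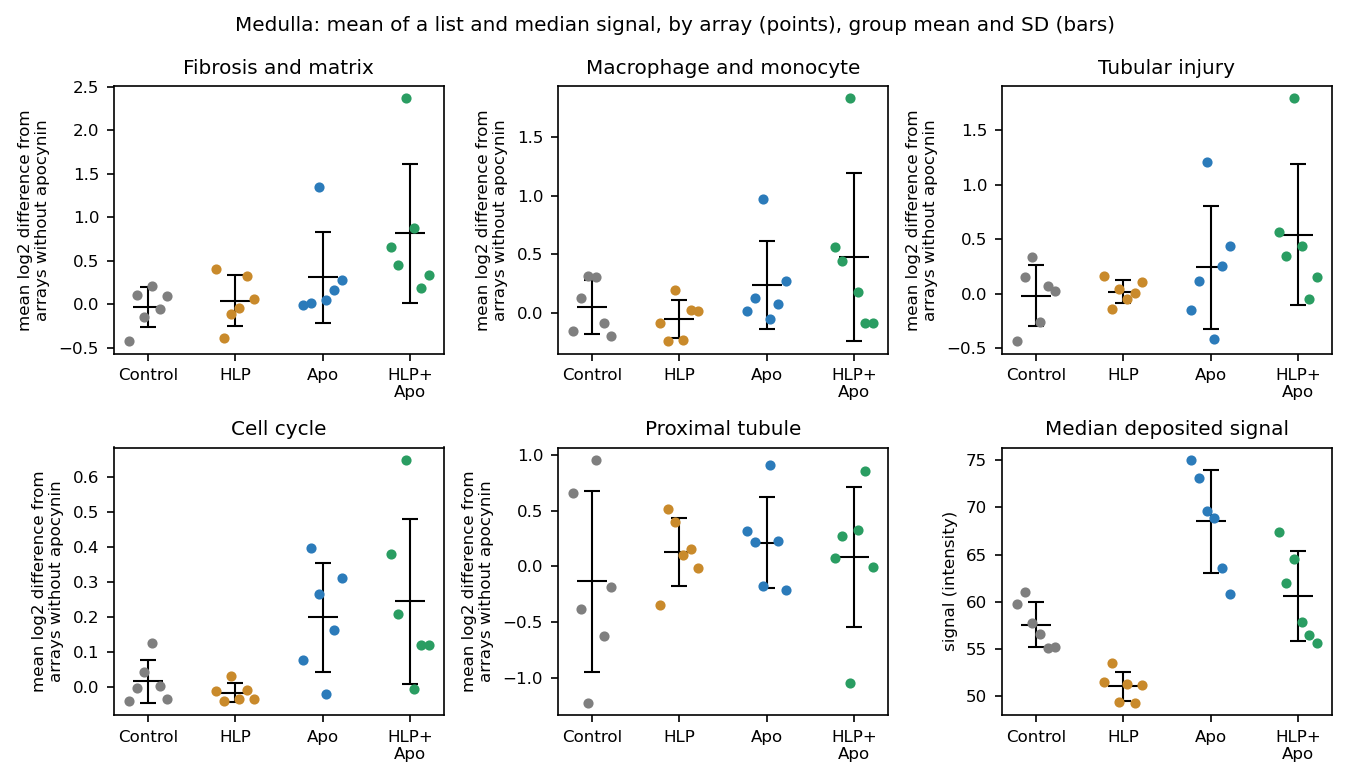
Each point is 1 medulla array, in the 4 groups of 6 along the horizontal axis (Apo, apocynin), with the group mean and SD as bars. The vertical axis is the mean log2 difference of a gene list from the arrays without apocynin, and in the last panel the median deposited signal (intensity). HLP+Apocynin 3 is the point at 2.37 in the matrix panel and at 1.83 in the macrophage panel, the cell cycle panel has most apocynin arrays above 0, and the signal of the apocynin arrays runs from 55.6 to 75.1.

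Markers of other cells moved with these genes in part. On the macrophage list, 13 of the 15 genes on the chip table were tested, all 13 were higher with apocynin, and only Laptm5, a lysosomal membrane protein of blood cells, rose (7.69%, against 10.8% of all genes; 0.78 ± 0.21, SE, limma, adjusted p = 0.00932). Without the 3 arrays high in proximal tubule genes, or without all 5, 4 were called. The mean of the list lay between -0.24 and 0.31 in arrays without apocynin and between -0.09 and 1.83 in those with it, and Cd163 and Itgam were not detected often enough to be tested. Clec10a, a lectin of macrophages and dendritic cells, was at 6.92 to 8.08 (median 7.33) without apocynin and 7.49 to 10.93 (median 8.23) with it, a rise of 1.07 ± 0.31 (SE, limma, adjusted p = 0.014). Of 9 tested lymphocyte genes, 0 were called by limma, 0 had an unadjusted p under 0.05 and the median was 0.03. Of 7 genes of smooth muscle and myofibroblasts, 2 rose (28.6%, against 10.8% of all genes) and 1 fell (14.3%, against 12.6%). Tagln, for the actin-binding protein transgelin, was at 7.53 to 8.72 (median 7.93) without apocynin and 8.01 to 11.70 (median 9.12) with it (1.24 ± 0.30, SE, limma, adjusted p = 0.00402). The part of these cells in the matrix and injury genes was not tested.

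Complement genes were among the largest rises. C2, a protease of the classical pathway, had a log2 signal of 6.76 to 7.65 (median 7.11) without apocynin and 7.56 to 10.49 (median 8.02) with it. The pools overlapped only through Control 2 (7.65) and Apocynin 4 (7.56), and the difference was 1.29 ± 0.26 (SE, limma, adjusted p = 0.00099). C4b, for another component of that pathway, rose by 1.06 ± 0.32 (SE, limma, adjusted p = 0.019), and 11 of 12 arrays with apocynin were above the mean of those without. F3, for tissue factor, which starts coagulation, rose by 0.71 ± 0.20 (SE, limma, adjusted p = 0.0127) and Thbd, for thrombomodulin, which restrains it, by 0.29, a call lost under median scaling (0.25, limma, adjusted p = 0.1) and on leaving out any of 16 single arrays in turn (limma, adjusted p up to 0.0765). In all, 4 of 16 genes of complement and coagulation rose (25%, against 10.8% of all genes), 0 fell, and the median of 0.43 went to 0.21 without the 2 arrays that stood apart, when 4 were called. Slpi, an inhibitor of leukocyte proteases, rose by 1.04 ± 0.25 (SE, limma, adjusted p = 0.00427).

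Genes of the cell cycle rose together: 13 of 25 were called higher (52%, against 10.8% of all genes), 0 lower, and 24 of 25 were above 0, with a median of 0.14, which was 0.36 without background correction. Without the 2 arrays that stood apart the count was again 13, and without the 3 arrays high in proximal tubule genes it was 16. Ccnb2, the cyclin B that carries cells into mitosis with Cdk1, was at no more than 7.71 (median 7.16) without apocynin and 7.07 to 9.11 (median 8.22) with it. Of the arrays with apocynin, 11 of 12 were above the mean of those without, and the difference was 0.97 ± 0.17 (SE, limma, adjusted p = 0.000241). Cdk1 rose by 0.70 (limma, adjusted p = 0.0013), Prc1, which bundles microtubules of the spindle midzone, by 0.65 (limma, adjusted p = 0.000408), and Rrm2, a subunit of ribonucleotide reductase, by 0.52. Kif20a, a kinesin of cytokinesis, rose by 0.22 ± 0.04 (SE, limma, adjusted p = 0.000151) from levels near the floor of the signals, at 6.67 to 6.80 without apocynin and 6.70 to 7.09 with it. With the log2 median signal of each array as a term, 2 of the 25 were called.

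The promoters of the 3 cell cycle genes of largest rise are shown because genes of this list moved together and such genes often carry a CCAAT box (CCAAT) and a cell cycle genes homology region (TTTGAA) near their start. Each sequence runs 5′ to 3′ on the strand of the gene over 300 bases around its start, is taken from RefSeq on GRCr8, and has both motifs, read on either strand, in capitals. They lie at chr8:79981609-79981908 on the minus strand (Ccnb2), chr20:19265043-19265342 on the plus strand (Cdk1) and chr1:143659231-143659530 on the plus strand (Prc1).
Ccnb2: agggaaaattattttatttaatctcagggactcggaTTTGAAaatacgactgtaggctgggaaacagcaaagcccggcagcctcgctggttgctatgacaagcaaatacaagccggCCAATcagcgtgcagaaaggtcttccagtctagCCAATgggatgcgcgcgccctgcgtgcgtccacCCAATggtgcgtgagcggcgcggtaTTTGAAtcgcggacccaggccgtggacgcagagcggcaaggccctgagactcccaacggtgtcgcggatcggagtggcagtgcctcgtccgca
Cdk1: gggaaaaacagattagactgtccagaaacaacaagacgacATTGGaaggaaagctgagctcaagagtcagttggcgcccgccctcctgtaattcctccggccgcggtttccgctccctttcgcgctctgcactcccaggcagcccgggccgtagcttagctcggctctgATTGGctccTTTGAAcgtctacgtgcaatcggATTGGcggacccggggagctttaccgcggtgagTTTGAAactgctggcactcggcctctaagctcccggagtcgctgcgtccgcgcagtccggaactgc
Prc1: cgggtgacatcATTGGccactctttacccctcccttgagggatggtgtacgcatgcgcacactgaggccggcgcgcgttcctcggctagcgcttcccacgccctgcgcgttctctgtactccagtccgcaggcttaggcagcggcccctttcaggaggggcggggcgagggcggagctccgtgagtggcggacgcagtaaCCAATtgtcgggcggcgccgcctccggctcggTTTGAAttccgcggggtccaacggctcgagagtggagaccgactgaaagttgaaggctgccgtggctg
Ccnb2 and Cdk1 each hold 3 copies of CCAAT and 2 of TTTGAA, and Prc1 holds 2 and 1, with no overlap of the motifs. Of 33469 promoters of this length, 37.5% hold CCAAT, 18.3% hold TTTGAA and 7.41% hold both. Of the 13 called cell cycle genes, 9 had a promoter in the table, 8 of these hold CCAAT and 7 hold both motifs, and among 18 tested members with a promoter the numbers are 13 and 7. A match of letters is a description and shows no binding.

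**Figure D2:**
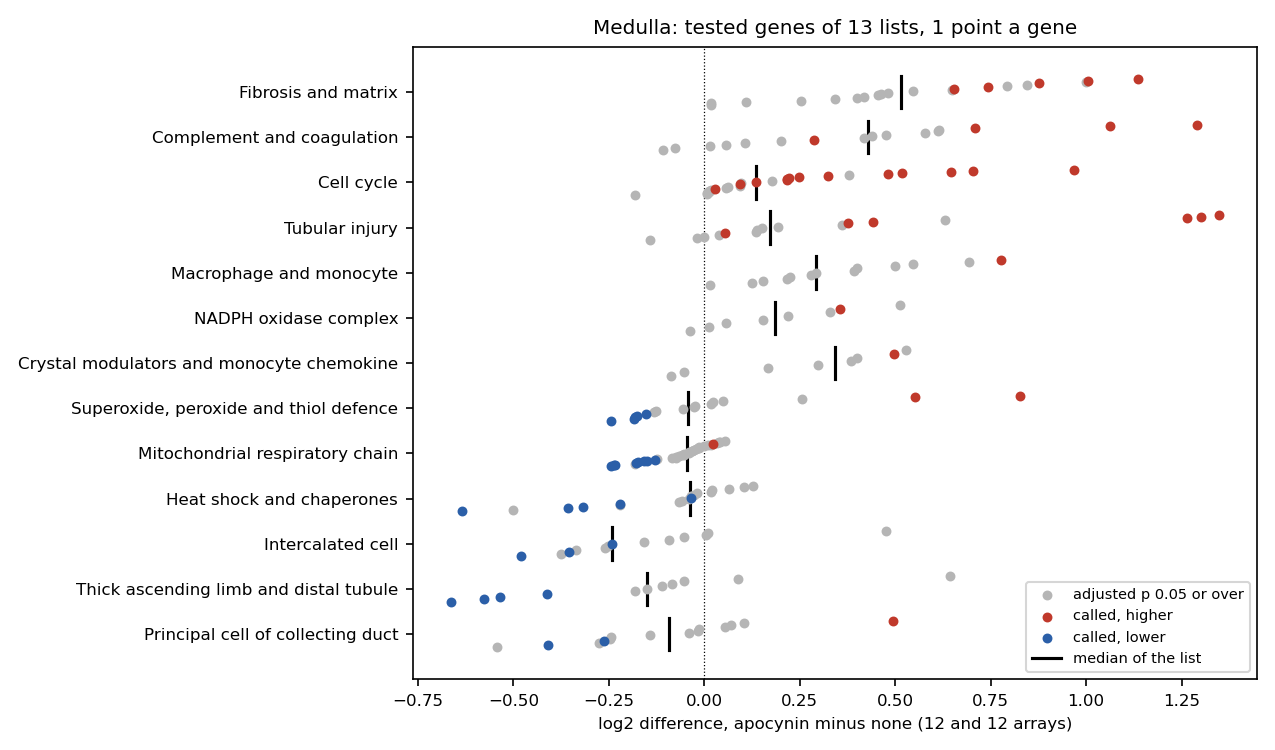
Each point is the lead probe of 1 tested gene, placed along the horizontal axis by its log2 difference, apocynin minus none (12 and 12 arrays), in 13 gene lists along the vertical axis. Red points were called higher, blue points lower and grey points neither at an adjusted p under 0.05, and the black bar is the median of the list, 0.51 for matrix genes and -0.24 for intercalated cell genes.

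Of the 8 tested genes of the NADPH oxidase complex, 1 rose (12.5%, against 10.8% of all genes), 0 fell, and the median difference was 0.19. Rac2, the Rac GTPase of blood cells, was at 8.74 to 9.35 (median 8.92) without apocynin and 8.94 to 10.40 (median 9.13) with it. Its difference of 0.35 ± 0.13 (SE, limma, adjusted p = 0.0445) was not called under median scaling (limma, adjusted p = 0.239) or without the 2 arrays that stood apart (0.21, limma, adjusted p = 0.0669), nor on leaving out any of 13 single arrays in turn (limma, adjusted p up to 0.0776). Cyba, for the shared membrane subunit, was at 10.67 to 13.27 (median 11.77) without apocynin and 11.79 to 13.15 (median 12.31) with it (0.51 ± 0.23, SE, limma, adjusted p = 0.107). Without Control 4, which held the highest value of the pool without apocynin, its difference was 0.64 (limma, adjusted p = 0.0203). Cybb, the catalytic subunit of phagocytes, differed by 0.33 (limma, adjusted p = 0.181), and Nox4, the catalytic subunit abundant in kidney, by 0.15 ± 0.39 (SE, limma, adjusted p = 0.808) with arrays spread from 6.74 to 10.21. The cytosolic subunits Ncf1 and Ncf4 differed by 0.22 and 0.06, and the GTPases Rac1 and Rap1a by -0.04 and 0.01, all with an adjusted p of 0.0889 or more by limma. Noxa1 and Noxo1 were not detected often enough to be tested. Of 8 genes of the renin-angiotensin system, which can activate the oxidase, 0 were called by limma and 3 had an unadjusted p under 0.05, with a median of -0.01. Among all 11972 tested probes, 4305 had an unadjusted p under 0.05, so that 3 of 8 is near the share of all probes. A p that misses the threshold does not show that the pools were alike in these genes.

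Among genes that remove superoxide and peroxide, 2 of 16 rose (12.5%, against 10.8% of all genes) and 5 fell (31.2%, against 12.6%). Sod3, for the extracellular superoxide dismutase, was at 10.23 to 11.97 (median 11.18) without apocynin and 11.17 to 11.97 (median 11.67) with it, and all arrays with apocynin were above the mean of those without (0.55 ± 0.16, SE, limma, adjusted p = 0.0138). Gpx2, a glutathione peroxidase of epithelia, rose by 0.83 ± 0.27 (SE, limma, adjusted p = 0.0291), and Apocynin 3 (9.11) and HLP+Apocynin 3 (10.10) held the highest values. It was not called without Apocynin 3 (0.70, limma, adjusted p = 0.0527). Sod1, the cytosolic dismutase, went from 13.43 to 13.65 down to 12.98 to 13.46, so that only a small overlap was left (-0.18 ± 0.04, SE, limma, adjusted p = 0.00324). Prdx5, Prdx6, Txn1 and Gsr, which reduce peroxides and disulfides, fell by 0.18, 0.18, 0.15 and 0.24. In the log2 table Sod1 (-0.01, limma, adjusted p = 0.966), Prdx5 (-0.05, limma, adjusted p = 0.798), Prdx6 (-0.04, limma, adjusted p = 0.846), Txn1 (-0.01, limma, adjusted p = 0.955) and Gsr (-0.14, limma, adjusted p = 0.507) were not called. The calls of Prdx6 and Gsr were also lost on leaving out any of 16 and 8 single arrays in turn. Of 16 genes around Nrf2, the regulator of many antioxidant genes, 0 rose and 2 fell (12.5%, against 12.6% of all genes), with a median of 0.03. Those that fell were Me1, the cytosolic malic enzyme, by 0.66 and Keap1, the repressor of Nrf2, by 0.20.

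Of the genes tied to crystals, 1 of 8 rose (12.5%, against 10.8% of all genes) and 0 fell. Ambp, the precursor of bikunin, which is a urinary inhibitor of crystal growth, was at 6.68 to 7.40 (median 6.96) without apocynin and 7.03 to 8.45 (median 7.38) with it. All 12 arrays with apocynin were above the mean of those without (0.50 ± 0.14, SE, limma, adjusted p = 0.00973). Spp1, for osteopontin, and Mgp, for matrix Gla protein, differed by 0.30 ± 0.22 and 0.53 ± 0.21 (SE, limma, adjusted p = 0.336 and 0.0682). Mgp passed the threshold without Control 4 (0.59, limma, adjusted p = 0.0365), Apocynin 1 (0.60, limma, adjusted p = 0.0347) or Apocynin 2 (0.59, limma, adjusted p = 0.0467). Umod, for uromodulin, stayed within 13.24 to 13.56 without apocynin and 12.96 to 13.49 with it (-0.05 ± 0.05, SE, limma, adjusted p = 0.447). The chemokine gene Ccl2, the hyaluronan receptor gene Cd44, the phospholipid-binding Anxa2 and the prothrombin gene F2 differed by 0.17, 0.38, 0.40 and -0.09, with an adjusted p of 0.118 or more by limma. In Ccl2 and Cd44 the highest array was HLP+Apocynin 3, at 8.57 and 8.81, where the next array of its group was at 6.89 and 7.05.

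The largest falls were in genes of varied function, and many had a wide spread. Cyp1a1, a xenobiotic-metabolizing P450, was at 6.55 to 10.72 (median 10.07) without apocynin and 6.49 to 9.96 (median 8.35) with it. Its difference of -1.44 ± 0.51 (SE, limma, adjusted p = 0.0402) was the largest fall, and Control 4 (6.55) stood far under the rest of its group, whose next value was 9.52. The call was lost on leaving out Control 3 (-1.46, limma, adjusted p = 0.0503), Apocynin 4 (-1.29, limma, adjusted p = 0.0681) or any of 12 other single arrays. Noct, a clock-controlled phosphatase of NADP cofactors, was at 6.94 to 10.33 (median 9.61) without apocynin and 6.96 to 9.22 with it, and all 12 arrays with apocynin were under the mean of those without (-1.10 ± 0.32, SE, limma, adjusted p = 0.0135). Nr1d1, which encodes the clock repressor Rev-erb alpha, fell by 0.65 ± 0.17 (SE, limma, adjusted p = 0.00724). Of the 12 tested clock genes, 1 was called higher (8.33%, against 10.8% of all genes) and only Nr1d1 was called lower (8.33%, against 12.6%), with a median of -0.02.

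Slc25a25, a mitochondrial ATP-Mg and phosphate carrier, was at 9.43 to 10.69 (median 10.18) without apocynin and 7.95 to 10.11 (median 9.05) with it (-1.11 ± 0.23, SE, limma, adjusted p = 0.00128). Slc22a13, an organic anion transporter, fell from a median of 8.23 to one of 7.10 (-1.11 ± 0.27, SE, limma, adjusted p = 0.00427). Shisa3, a modulator of Wnt signalling, Ppm1k, the phosphatase of branched-chain keto acid dehydrogenase, and Chd6, a chromatin remodeller, fell by 1.00, 1.00 and 0.95, and in each all 12 arrays with apocynin were under the mean of those without. Prlr, the prolactin receptor, fell from a median of 11.33 to one of 10.66 (-1.01 ± 0.36, SE, limma, adjusted p = 0.0443), and Mat2a, which makes S-adenosylmethionine, from 11.02 to 10.17 (-0.85 ± 0.26, SE, limma, adjusted p = 0.0219). Both had a low array in the pool without apocynin, Control 4 at 8.53 and 8.79, and neither was called without Apocynin 3 and HLP+Apocynin 3 (limma, adjusted p = 0.105 and 0.0563). The call of Prlr was also lost on leaving out any of 15 single arrays in turn (limma, adjusted p up to 0.0712). Vwf, for the von Willebrand factor of endothelium, was at 8.58 to 9.62 (median 9.11) without apocynin and 7.26 to 8.79 (median 8.39) with it (-0.88 ± 0.17, SE, limma, adjusted p = 0.000682). Of the 10 endothelial genes tested, 1 rose (10%, against 10.8% of all genes), 2 fell (20%, against 12.6%) and the median was -0.01.

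The firmest calls were of a different kind, with small spreads in both pools. Rbm42, an RNA-binding protein, was at 11.22 to 11.42 (median 11.37) without apocynin and 10.67 to 11.16 (median 10.85) with it. No array of one pool reached the other, and its fall of 0.48 ± 0.04 had the smallest adjusted p of all genes (SE, limma, adjusted p = 1.81e-07). Eif2s1, the alpha subunit of the translation initiation factor that stress kinases phosphorylate, went from 8.16 to 8.54 down to 7.68 to 8.01 (-0.55 ± 0.05, SE, limma, adjusted p = 3.09e-07). Fkbp8, a mitochondrial chaperone, went from 8.95 to 9.23 down to 8.23 to 8.84 (-0.59 ± 0.06, SE, limma, adjusted p = 6.04e-07). Map1lc3a, an autophagosome protein, Zmiz2, a transcriptional coactivator, and Ift20, a carrier of cilium proteins, fell by 0.47, 0.55 and 0.43, also with no overlap. Epn1, an endocytic adaptor, fell by 0.93 ± 0.11 and Atp1b2, a sodium pump subunit, by 0.88 ± 0.12 (SE, limma, adjusted p = 6.84e-06 and 3.39e-05).

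Dgka led the firm rises. It encodes a diacylglycerol kinase, which removes the activator of protein kinase C, and was at 8.23 to 8.91 (median 8.49) without apocynin and 9.02 to 9.47 (median 9.18) with it. The pools did not overlap (0.72 ± 0.07, SE, limma, adjusted p = 5.35e-07). Stimate, a regulator of store-operated calcium entry, went from a median of 8.33 up to 8.64 to 8.86 with no overlap (0.41 ± 0.05, SE, limma, adjusted p = 4.57e-06), and Lactb, a mitochondrial protein, from 10.97 to 11.28 up to 11.37 to 11.58 (0.30 ± 0.04, SE, limma, adjusted p = 8.61e-06). Rpl31, a ribosomal protein, rose by 0.51 with no overlap, and Zfp414 and Efcab10 by 0.59 and 0.59 with a little. With the log2 median signal of each array as a term, the calls of Rbm42, Eif2s1, Fkbp8, Map1lc3a, Zmiz2, Ift20, Epn1, Atp1b2, Dgka, Stimate, Lactb, Rpl31, Zfp414, Efcab10, Clu, Hpgd, Ccnb2, Kif20a, Hsp90aa1, Atp5f1d, Cox5a, Pfkl, Thbd and Txn1 were kept, and the other genes whose values are given here and that were called without it were not.

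**Figure D3:**
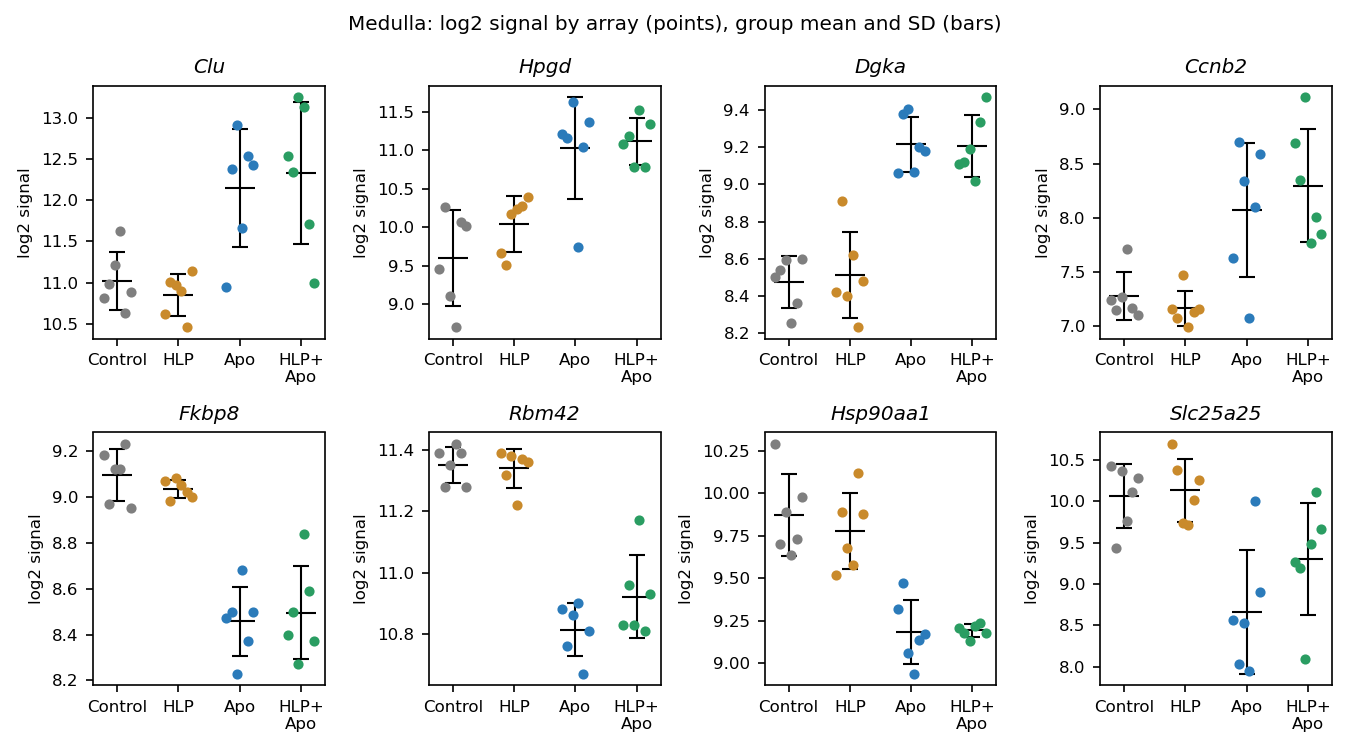
Each point is the log2 signal of 1 medulla array, in the groups Control, HLP, Apo (apocynin) and HLP+Apo with 6 arrays each along the horizontal axis, and bars give the group mean and SD. Clu, Hpgd, Dgka and Ccnb2 were higher with apocynin and Fkbp8, Rbm42, Hsp90aa1 and Slc25a25 lower, with no overlap of the pools in Dgka (9.02 and above against 8.91 and below), Fkbp8, Rbm42 and Hsp90aa1.

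Chaperones fell where they were called. Of 18 tested, 0 rose and 5 fell (27.8%, against 12.6% of all genes), with a median of -0.04. Hsp90aa1, the inducible cytosolic chaperone, was at 9.52 to 10.29 (median 9.81) without apocynin and 8.94 to 9.47 (median 9.18) with it. The pools did not overlap, and the 6 arrays of HLP+Apocynin lay between 9.13 and 9.24 (-0.64 ± 0.08, SE, limma, adjusted p = 6.84e-06). Dnajb9 and Hsp90b1, of the endoplasmic reticulum, fell by 0.36 and 0.22, Dnajb1, a partner of the cytosolic chaperones, by 0.32, and Hyou1 by 0.04. Hyou1 lay at the floor of the signals, with values from 6.48 to 6.61. The call of Dnajb1 was lost on leaving out any of 8 single arrays in turn. In the respiratory chain 8 of 34 genes fell (23.5%, against 12.6% of all genes), 1 rose, and 27 were below 0 with a median of -0.05. Atp5f1d, a subunit of the ATP synthase, went from 12.48 to 12.74 down to 12.19 to 12.45 with no overlap (-0.24 ± 0.04, SE, limma, adjusted p = 7.09e-05). Cox5a, a subunit of cytochrome c oxidase, fell by 0.23 (limma, adjusted p = 0.000745). In the log2 table both differences were -0.09 and were not called (limma, adjusted p = 0.633 and 0.693).

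Of 16 genes of glycolysis and hypoxia, 4 rose (25%, against 10.8% of all genes) and 2 fell (12.5%, against 12.6%), but with median scaling 0 rose and 2 fell. Of 19 genes of fatty acid oxidation and the peroxisome, 1 rose (5.26%, against 10.8% of all genes) and 3 fell (15.8%, against 12.6%). Cpt1a, the carnitine transferase that admits fatty acids to mitochondria, was at 10.79 to 11.47 (median 11.06) without apocynin and 10.15 to 11.06 (median 10.53) with it (-0.54 ± 0.09, SE, limma, adjusted p = 0.000167). Pfkl, a phosphofructokinase of glycolysis, went from 8.29 to 9.03 down to 7.61 to 8.85 (-0.65 ± 0.11, SE, limma, adjusted p = 0.000295), while Gapdh, a later enzyme of that path, rose by 0.27 ± 0.07 (SE, limma, adjusted p = 0.00674), a call that was lost under median scaling (0.19, limma, adjusted p = 0.2). Vegfa, the endothelial growth factor, fell by 0.36 (limma, adjusted p = 0.01). Of 20 immediate early genes, 1 rose (5%, against 10.8% of all genes) and 1 fell (5%, against 12.6%), with a median of -0.03. Klf4, a transcription factor, fell by 0.63 ± 0.12 with all 12 arrays under the mean of the other pool (SE, limma, adjusted p = 0.000433), and Myc rose by 0.81 ± 0.23 with all 12 above it (SE, limma, adjusted p = 0.012).

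Of 11 genes of the thick ascending limb and distal tubule, 0 rose and 4 fell (36.4%, against 12.6% of all genes), with a median of -0.15. Egf, made in these segments, was at 12.47 to 12.95 (median 12.72) without apocynin and 10.97 to 12.61 (median 12.35) with it (-0.54 ± 0.14, SE, limma, adjusted p = 0.0066). Kcnj1, the potassium channel ROMK, fell by 0.58 ± 0.18 (SE, limma, adjusted p = 0.0249), Ppp1r1a by 0.66 and Bsnd, the chloride channel subunit barttin, by 0.41. Of 13 genes of intercalated cells, which secrete acid or base, 0 rose and 3 fell (23.1%, against 12.6% of all genes), with a median of -0.24, and without the 3 arrays high in proximal tubule genes 7 fell. Those called over all arrays were Car2, a carbonic anhydrase (-0.24), the transcription factor Foxi1 (-0.35) and the anion exchanger Slc4a1 (-0.48). Across the other settings the fall of Car2 shrank to as little as -0.09 (limma, adjusted p up to 0.621). Without Apocynin 3 and HLP+Apocynin 3, Bsnd (-0.32, limma, adjusted p = 0.0729) and Slc4a1 (-0.42, limma, adjusted p = 0.089) were not called, and that of Slc4a1 was lost on leaving out any of 14 single arrays in turn. In principal cells, which take up sodium and water, 1 of 14 rose (7.14%, against 10.8% of all genes) and 2 fell (14.3%, against 12.6%). The kinase gene Sgk1 rose by 0.49 ± 0.16 (SE, limma, adjusted p = 0.0318), and Hsd11b2, which shields the mineralocorticoid receptor from glucocorticoids, fell by 0.41 ± 0.15 (SE, limma, adjusted p = 0.0445), and these calls were lost on leaving out any of 6 and 16 single arrays in turn. Aqp1, the water channel of proximal and thin descending tubules, was at 12.82 to 13.37 (median 13.25) without apocynin and 12.52 to 13.17 (median 12.86) with it (-0.35 ± 0.07, SE, limma, adjusted p = 0.000918).

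In genes of the proximal tubule, 1 of 20 rose (5%, against 10.8% of all genes) and 1 fell (5%, against 12.6%). Slc13a1, a sulfate transporter, was at 6.83 to 11.60 (median 9.66) without apocynin and at least 10.02 (median 10.76) with it (1.27 ± 0.40, SE, limma, adjusted p = 0.024). Slc22a12, a urate transporter, fell by 0.74 ± 0.24 (SE, limma, adjusted p = 0.0316), with HLP+Apocynin 3 (8.23) far under the next array of its group (10.53), and it was not called without Apocynin 3 (-0.68, limma, adjusted p = 0.0561) or Apocynin 4 (-0.65, limma, adjusted p = 0.0537). Averaged over the list, arrays ran from -1.22 to 0.96 without apocynin and from -1.04 to 0.91 with it. Cyp2e1, a P450 of ethanol and fatty acids, and Car15, a membrane-bound carbonic anhydrase, rose by 0.82 ± 0.26 and 1.06 ± 0.28 (SE, limma, adjusted p = 0.0213 and 0.00891), with all 12 arrays above the mean of the other pool in both. Slc13a1 was not called without the 2 arrays that stood apart and the 3 high in proximal tubule genes (1.13, limma, adjusted p = 0.051).

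Whether the effect of apocynin differed between the diets was tested with 4 group means. The difference of the effect with HLP and without passed an adjusted p of 0.05 by limma on 0 of 11972 probes (0%), and 257 had an unadjusted p under 0.05. All 2789 called probes had the same sign in both diets, which the pooling favours. Clu was 1.12 higher with apocynin on regular chow and 1.48 higher on HLP, Hpgd 1.43 and 1.08, Dgka 0.74 and 0.70, Hsp90aa1 -0.69 and -0.58, and Rbm42 -0.54 and -0.42. Nr1d1 (-1.01 on regular chow and -0.29 on HLP) and Lcn2 (0.90 and 1.79) were less alike, with differences that were not called. Under the group names of the log2 table the count was again 0, with 307 at an unadjusted p under 0.05, and an ordinary least squares fit called 1 probe, that of Pkn2 (-0.24, adjusted p = 0.0376), a kinase named here after its value was seen.

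The same comparison over the 24 cortex arrays of these groups was the closest to set beside the medulla. The apocynin difference itself differed between the tissues on 2856 of 12616 probes (22.6%) at an adjusted p under 0.05 by limma, with 1176 (41.2% of the calls) higher and 1680 lower in the medulla, and on 4271 at an unadjusted p under 0.05. With the arrays of one group and number as a block the count was 3594. The log2 values of the authors gave 2762 calls, 56.4% of them higher. The firm calls of the medulla were among them. Dgka differed by 0.72 in the medulla and -0.09 in the cortex (difference 0.81, limma, adjusted p = 4.56e-05), Fkbp8 by -0.59 and 0.11 (-0.70, limma, adjusted p = 5.11e-08), Epn1 by -0.93 and 0.15 (-1.08, limma, adjusted p = 0.000562) and Pfkl by -0.65 and 0.37 (-1.02, limma, adjusted p = 1.17e-05). Stimate (0.41 and -0.14), Zmiz2 (-0.55 and 0.17), Sod3 (0.55 and -0.19), Klf4 (-0.63 and 0.06), Cpt1a (-0.54 and 0.07) and Hsp90aa1 (-0.64 and -0.20) differed between the tissues as well.

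Other large changes were met in both tissues at sizes that the test did not tell apart. Clu was higher with apocynin by 1.30 in the medulla and 1.21 in the cortex (difference 0.09, limma, adjusted p = 0.872), Fbln1 by 1.01 and 0.95, C4b by 1.06 and 0.95, Lcn2 by 1.35 and 1.08 and Hpgd by 1.25 and 0.87. Slc25a25 differed by -1.11 and -1.27 and Vwf by -0.88 and -0.73. Of the 13 called cell cycle genes, Ccnb2 was 0.97 higher in the medulla and 0.48 higher in the cortex (limma, adjusted p = 0.12 for the difference). Between the tissues, 2 of the 25 genes of the list differed, against 22.6% of all probes in that test. The 4 genes of smallest adjusted p in this test, Klhl1, St8sia6, Ivl and Padi2, lay at the floor in the medulla, with log2 signals of 6.49 to 6.64, and the tissues differed by -0.12, -0.09, -0.10 and 0.07. Without background correction these were -0.67, -0.56, -0.63 and 0.44.

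**Figure D4:**
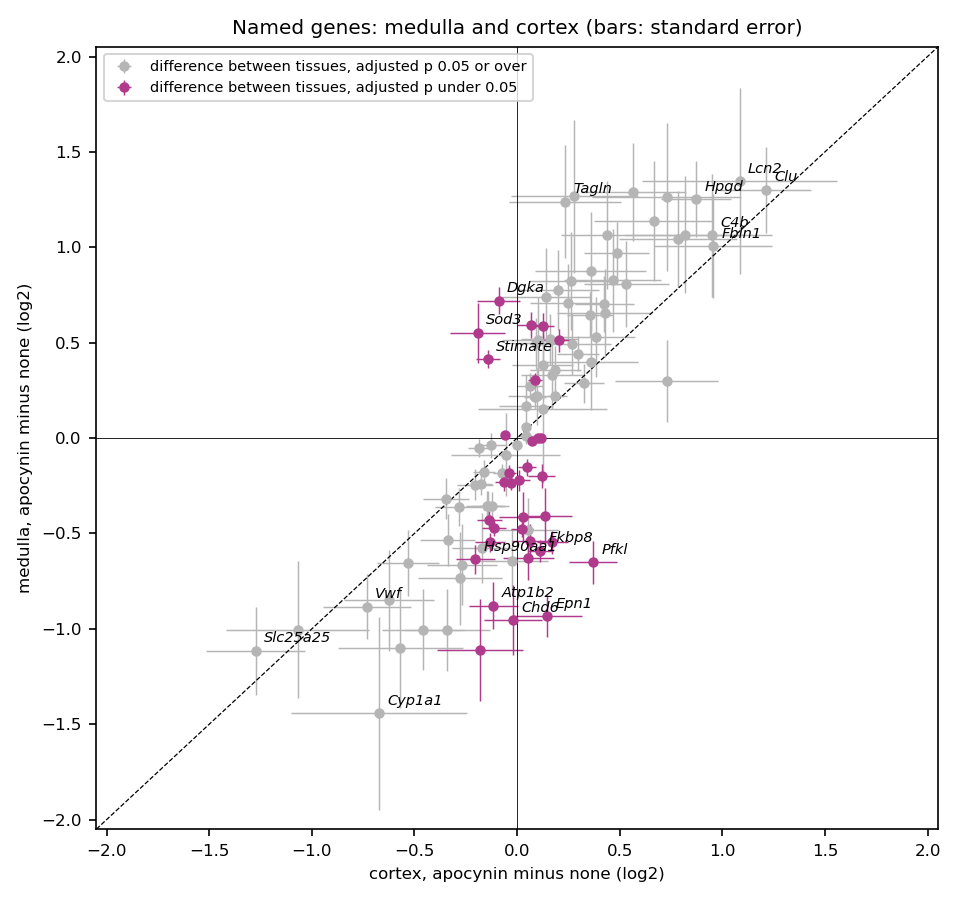
Each point is 1 of the genes whose values are given, with the log2 difference, apocynin minus none, in the cortex along the horizontal axis and in the medulla along the vertical axis, bars for the standard error and a dashed line of equality. Purple points differed between the tissues at an adjusted p under 0.05. Clu (1.21 and 1.30) lies near the line, while Dgka (-0.09 and 0.72) and Epn1 (0.15 and -0.93) lie far from it.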

How the data were processed

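The authors hybridised kidney RNA to Illumina RatRef-12 BeadChips once per sample and read them with Genome Studio. Per the file headers, the deposited signal table holds probe intensity values that are neither background-subtracted nor scaled, each beside its detection p-value. A second deposited table holds log2 values that the authors normalized between arrays by a method not given in the sources used here. It served as an alternative. No column of per-sample values was left out (0).

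Signals were background-corrected with nec (offset 16), quantile normalized over 48 arrays, set on the log2 scale and fitted with limma 3.58.1 in R 4.3.3 (statmod 1.5.0 for a random block of the arrays of one group and number), with Benjamini-Hochberg adjustment over all tested probes. The apocynin fit held both pools of 12 medulla arrays, the diet test 4 group means and the cortex test all 48 arrays. Probes needed a detection p-value under 0.05 in 6 or more of the 24 medulla arrays. Of 22226 probes, 13650 had 1 gene symbol and 8576 had none, and the lead probe of a gene was that of highest mean signal. Both the pools and the gene lists were chosen with earlier results of these data known. Named are the 12 genes that rose most and the 12 that fell most, the 6 of smallest adjusted p each way, up to 2 called members each way of each of 36 lists, all measured members of the NADPH oxidase and crystal lists, and the 4 of smallest adjusted p in each test of a difference. Values are given for part of these. Cdk1, Prc1, Rrm2, Loxl1, Col14a1, Dcn, Thbd, Prdx6, Txn1, Gsr, Dnajb1, Hsp90b1, Hyou1, Ppp1r1a, Bsnd and Slc4a1 were added after their values were seen. Array numbers were not taken to pair the medulla samples. The number of arrays limits the precision, and where separate rats are not stated p-values measure only the spread between samples. Only the pooled apocynin fit was tried on simulated data, with an outcome not given here, and the diet and cortex tests were not. Alternatives were background correction, scaling, detection filter, the authors' table, a signal term, a replicate block, other tests, other array sets and leaving out each array. Leaving out the 2, 3 and 5 arrays that stood apart was chosen after seeing the data.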

Additional observations from a re-analysis of the deposited data

Results flagged for a closer look

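Within a group of 6 arrays, a value was marked when its gap to the nearest other value, over the range of the group, passed Dixon's critical value. This marked 63 of 408 sets of 6 values, and chance marks about 1 in 20. Values are log2 signals, and their cause was not tested.

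HLP+Apocynin 3 stood apart in 15 genes: Lcn2 (12.92), C2 (10.49), Timp1 (12.41), Lox (11.34), Anxa2 (11.22), Ccl2 (8.57), Cd44 (8.81), Krt8 (12.11), Laptm5 (10.22), Egf (10.97), Cox5a (12.26), Sod1 (12.99), Slc22a12 (8.23), Loxl1 (10.97) and Gsr (10.25). Apocynin 3 stood apart in 14 genes: Timp1 (11.01), Clec10a (10.06), Cybb (8.38), Rac1 (10.52), Ccl2 (7.41), Mgp (13.37), Krt8 (11.65), Fbln1 (10.06), Egf (11.59), Atp5f1d (12.2), Gpx2 (9.11), Myc (9.46), Loxl1 (10.2) and Dcn (13.03). Control 4 stood apart in 10 genes: Cyp1a1 (6.55), Noct (6.94), Prlr (8.53), Ppm1k (6.66), Mat2a (8.79), Mgp (12.33), Krt8 (11.24), Ccnb2 (7.71), Rrm2 (7.33) and Prdx6 (12.52). Of the remaining arrays, Apocynin 4 in Hpgd (9.74), Umod (12.96), Vegfa (8.13) and Ppp1r1a (7.14), Control 5 in Tagln (8.72), HLP 6 in Chd6 (9.4) and Col14a1 (7.2), HLP 5 in Mat2a (10.59), HLP 1 in Lactb (10.97) and Zmiz2 (9.27) and Apocynin 2 in Zfp414 (9.79) were marked. So were HLP+Apocynin 5 in Ambp (7.94), Control 1 in Ccl2 (6.53), Spp1 (10.73) and Dcn (10.52), HLP 2 in Spp1 (12.51) and F3 (10.54), Control 2 in Fbln1 (8.22), HLP 3 in Ccnb2 (7.47), Sgk1 (12.39), Sod1 (13.65) and Prc1 (7.05), Apocynin 5 in Keap1 (8.84) and Apocynin 6 in Hyou1 (6.54).

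The apocynin difference of the medulla minus that of the cortex, on the log2 scale, passed the limma test at an adjusted p under 0.05 in the following genes. It was below 0 in Atp1b2 (-0.76), Atp5f1d (-0.21), Bsnd (-0.44), Chd6 (-0.93), Cox5a (-0.17), Cpt1a (-0.61), Eif2s1 (-0.41), Epn1 (-1.08), Fkbp8 (-0.7), Hsd11b2 (-0.55), Hsp90aa1 (-0.43), Hsp90b1 (-0.23), Ift20 (-0.29), Ivl (-0.1), Keap1 (-0.32), Klf4 (-0.68), Klhl1 (-0.12), Map1lc3a (-0.36), Pfkl (-1.02), Rbm42 (-0.5), Slc22a13 (-0.93), Sod1 (-0.15), St8sia6 (-0.09), Txn1 (-0.2) and Zmiz2 (-0.72). It was above 0 in Dgka (0.81), Efcab10 (0.46), Lactb (0.22), Padi2 (0.07), Rpl31 (0.31), Sod3 (0.74), Stimate (0.56) and Zfp414 (0.52). Ivl, Klhl1, St8sia6 and Padi2 lay at the floor of the signals in the medulla. The calls of Cox5a, Bsnd and Hsp90b1 in this test were lost on leaving out any of 34, 24 and 18 of the 48 arrays in turn. At least 1 other setting took the call from Atp5f1d, Hsd11b2, Hsp90aa1, Ift20, Keap1, Lactb, Map1lc3a, Rbm42, Rpl31, Slc22a13, Sod1 and Txn1. The difference of Sod1, Atp5f1d and Txn1 shrank to -0.01 (limma, adjusted p up to 0.983, 0.977 and 0.968). That of Ift20 shrank to -0.12 (limma, adjusted p up to 0.582).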

How the results depend on the processing

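The 2789 calls of apocynin against none became 1785 with median scaling (1671 of the 2789 remained), 557 with the log2 median signal of each array as a term (523 remained) and 688 over the 12 medulla arrays that both tables put in 1 group (630 remained), a fit with fewer samples. Leaving out single arrays gave 2393 (without Apocynin 3) to 3245 (without Control 4). Leaving out sets of arrays, chosen after seeing the data, gave 2671, 3030 and 2791. The other settings gave 2377 to 2967. The diet test called 0 probes in every setting, and 0 to 0 on leaving out single arrays, except 1 by ordinary least squares. The cortex test called 2856 probes, 1646 with median scaling, 5686 with all probes tested, 1311 with probes detected in every array, and 2648 to 3046 on leaving out single arrays. The cause of these shifts was not tested, beyond the number of probes tested.

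Of the 2789 called probes, 3 turned sign with median scaling, 9 in the log2 table and 2 with the signal term. Among the genes whose values are given, those that turned were not called. Ccl2 was at -0.05 without the 2 arrays that stood apart and without all 5. F2 was at 0.04 over the arrays with 1 group in both tables, 0.04 without the 2 arrays, 0.05 without all 5, and -0.16 to 0.04 on leaving out single arrays. Nox4 ran from -0.01 to 0.32 and Rap1a from 0 to 0.03 on leaving out single arrays. Rap1a was at 0 in the log2 table and -0.06 with median scaling, Rac1 at 0.03 in the log2 table and 0.02 without the 3 arrays high in proximal tubule genes, and Umod at 0.09 in the log2 table. Of the gene values under other settings than leaving out 1 array, 1195 kept direction and side of the threshold, 198 lost the call, 6 gained it and 10 turned.

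With the array number as a replicate block, 2967, 0 and 3594 probes were called in the 3 tests, the third with the arrays of one group and number as a random block. Medulla arrays of one number correlated from -0.62 to 0.85 over 36 pairs (median 0.1, against 0.03 for other pairs), with 17 over 0.1, so the numbers were not taken to pair the samples. Cortex and medulla arrays of one group and number had a median of 0.37 over 24 pairs, with 20 over 0.1. Mgp passed the threshold under the block (0.53, limma, adjusted p = 0.0426). Signals near the floor compress differences of weakly expressed genes.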
